A study of Homo sapiens with 3 samples.

Results

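The promoter contacts of 10 fibroblast growth factor (FGF) ligand and receptor genes were examined in cardiomyocytes made from human embryonic stem cells (hESC-CMs): FGF2, FGF8, FGF9, FGF10, FGF12, FGF20, FGFR1, FGFR2, FGFR3 and FGFR4. The cells came from WA09 (H9), 1 established embryonic stem cell line, in 3 biological replicates of 1 condition, so no groups were compared and the values between replicates measure only the spread between these 3 samples of 1 line. Promoter capture Hi-C (PCHi-C) joins HindIII-cut DNA ends that were near each other in crosslinked nuclei and pulls out the joined pieces that carry a promoter. CHiCAGO then gives each pair of fragments a score, which is higher the more the reads exceed a background set by distance and technical noise. The lowest score listed was 5 in each of the 4 sets of calls, which were the 3 replicates and the merged replicates. A promoter fragment was a HindIII fragment listed on the captured side that held an annotated transcript start of a member gene, and its partners are called promoter-interacting regions (PIRs). By this rule 9 of the 10 genes had a promoter fragment, with 12 fragments among the 19075 of the whole data set. They took part in 251 of the 200587 distinct contacts that were called in at least 1 replicate. The differentiation notes name flow cytometry and qPCR for the cardiomyocyte markers myosin heavy chain and TNNT2 as the check of purity. Contact calls carry no expression, so the cell type could not be tested again here, and a contact held by a small part of the cells cannot be told apart from a weak contact in all of them.

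FGF ligands are secreted proteins that bind tyrosine kinase receptors at the cell surface together with heparan sulfate or a Klotho coreceptor, and the activated receptors signal through RAS and MAP kinase, phospholipase C and PI3 kinase. In the heart, FGF8 and FGF10 are known from the progenitors of the second heart field, and FGF9 and FGF20 from the epicardium and endocardium, which signal to FGFR1 and FGFR2 on growing cardiomyocytes. FGF2 is known from the response of the adult heart to injury and load. FGF12 belongs to the homologous factors, which stay inside the cell and bind voltage-gated sodium channels. FGFR1 to FGFR4 are the receptor kinases, of which FGFR4 is best known as the liver receptor of FGF19.

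The PIRs that can be shown whole were those of at most 300 bases that FGFR2, FGF8, FGF9 or FGF10 contacted in all 3 replicates. FGFR1 had 3 more such PIRs, whose sequences are not printed and were not searched here. The others numbered 5, namely 4 of the 48 PIRs that FGFR2 contacted in all 3 replicates and 1 of the 20 of FGF9. Their length alone set them apart from the rest of these repeated contacts. The PIRs with the highest mean score of FGFR2 and of FGF9 are longer and not among them. Each is the plus strand of GRCh37, and the HindIII cut leaves agctt at the left end and a at the right. Capitals mark a match to the GATA motif AGATAA, searched on both strands.
FGFR2 PIR in lncRNA ENSG00000227307, chr10:122705554-122705717: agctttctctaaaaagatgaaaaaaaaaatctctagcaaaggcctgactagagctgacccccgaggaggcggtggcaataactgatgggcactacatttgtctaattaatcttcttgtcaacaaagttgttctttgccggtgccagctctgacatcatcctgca
FGFR2 PIR in lncRNA ENSG00000227307, chr10:122711559-122711850: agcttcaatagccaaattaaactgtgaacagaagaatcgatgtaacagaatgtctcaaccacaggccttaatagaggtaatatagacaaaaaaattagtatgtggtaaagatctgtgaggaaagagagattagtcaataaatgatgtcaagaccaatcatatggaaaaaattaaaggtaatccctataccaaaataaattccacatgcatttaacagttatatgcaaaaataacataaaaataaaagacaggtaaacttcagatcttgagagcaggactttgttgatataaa
FGFR2 PIR between genes, chr10:122839365-122839548: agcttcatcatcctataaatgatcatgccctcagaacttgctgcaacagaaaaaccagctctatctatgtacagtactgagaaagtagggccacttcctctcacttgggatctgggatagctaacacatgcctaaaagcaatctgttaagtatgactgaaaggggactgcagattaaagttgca
FGFR2 PIR in LINC01153, chr10:122942703-122942870: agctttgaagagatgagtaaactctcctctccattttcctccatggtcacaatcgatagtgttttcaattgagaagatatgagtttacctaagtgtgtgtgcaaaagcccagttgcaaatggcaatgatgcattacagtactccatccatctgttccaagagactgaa
FGF9 PIR between genes, chr13:23363884-23364161: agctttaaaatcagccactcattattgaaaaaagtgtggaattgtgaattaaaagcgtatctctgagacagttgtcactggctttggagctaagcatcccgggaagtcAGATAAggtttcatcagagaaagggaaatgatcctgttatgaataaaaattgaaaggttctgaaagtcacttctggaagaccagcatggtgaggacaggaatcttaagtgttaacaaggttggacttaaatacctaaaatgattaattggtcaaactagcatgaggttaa
GC content was 43.9%, 30.8%, 42.4%, 40.5% and 37.4% in this order, beside a median of 38.6% over the 6858 listed fragments of 300 bases or fewer. The GATA match in the FGF9 PIR was the only motif match among these 5. Of all listed fragments of that length 20.0% held such a match, and 0.787% held a core motif of CTCF, the zinc finger protein that anchors many chromatin loops, which was in none of the 5.

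The 12 promoter fragments differed widely in the number of contacts. FGFR2 had 70, 62 and 63 contacts in replicates 1, 2 and 3 (65 ± 4.36, SD, n = 3), and its lowest replicate lay above the highest of every other fragment. FGF9 followed with 24, 25 and 26 contacts. FGFR1 had 3 promoter fragments. The one at its main start, with 35 of its 58 annotated starts, had 15, 15 and 21 contacts. An intragenic FGFR1 fragment, on which the gene ENSG00000255201 also starts, had 16, 20 and 16. A fragment at the 3′ end of the gene, which holds a non-coding FGFR1 start and starts of the neighbouring gene LETM2, had 23, 16 and 24. FGF8 had a main fragment with 20, 18 and 11 contacts and an adjacent fragment with 6, 7 and 8, which holds 1 FGF8 start and a start of NPM3, a nucleolar histone chaperone gene. FGF10 had 10, 11 and 8 contacts. The other 4 fragments had few. FGF12 had 2 in each replicate, FGF2 had 1, 3 and 1, FGFR4 had 1, 0 and 1, and FGF20 had 0, 0 and 2. In the order of the means, the ranges of neighbouring fragments overlapped except between FGFR2 and FGF9 and between the NPM3-side fragment of FGF8 and FGF12.

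**Figure D1:**
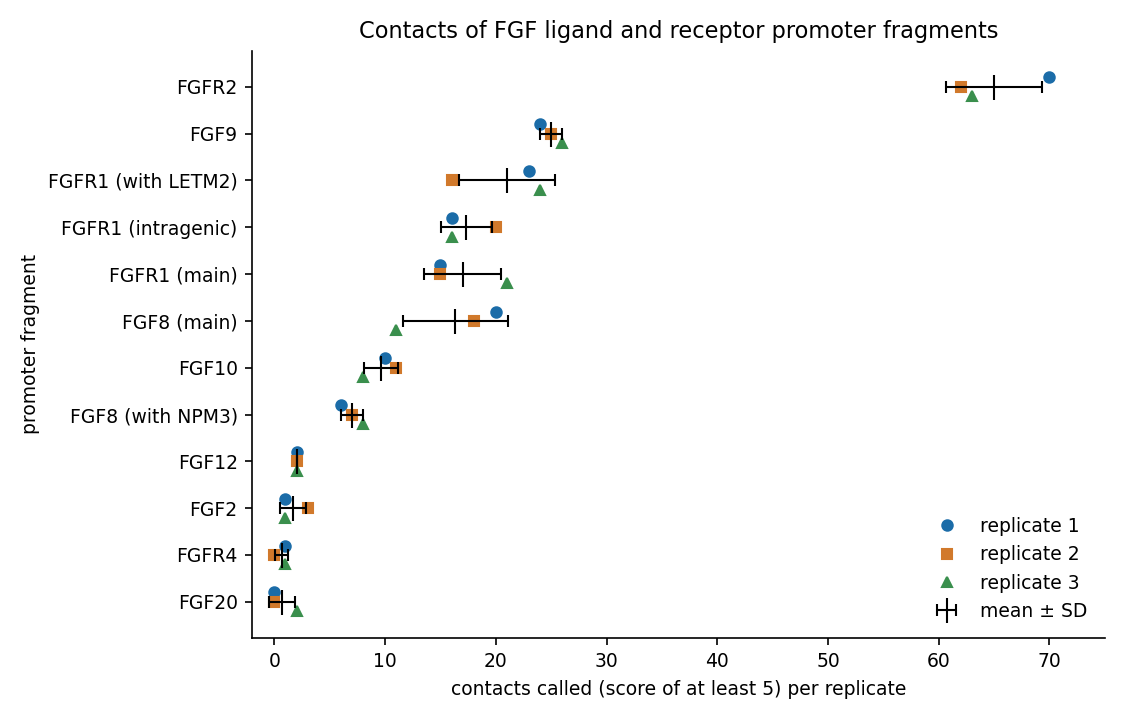
Number of contacts with a score of at least 5 (x axis) of each FGF ligand or receptor promoter fragment (y axis) in replicates 1 to 3 (coloured symbols), with the mean and SD in black. FGFR2 stood at 62 to 70 contacts, FGF9, FGFR1 and the main FGF8 fragment at 11 to 26, FGF10 and the second FGF8 fragment at 6 to 11, and FGF12, FGF2, FGFR4 and FGF20 at 0 to 3.

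Of the 251 contacts, 127 were called in all 3 replicates (50.6%, 95% Wilson interval 44.5 to 56.7), 45 in 2 and 79 in 1. Over the whole data set 24.0% of contacts were called in all 3. The intervals cover counting error only, and neighbouring PIRs of 1 promoter are not independent of each other. Without FGFR2, 79 of 167 contacts were called in all 3 (47.3%, 39.9 to 54.9). The receptor genes had 88 of 159 (55.3%, 47.6 to 62.9) and the ligand genes 39 of 92 (42.4%, 32.8 to 52.6), so that these intervals overlap. By gene, the contacts called in all 3 numbered 48 for FGFR2, 40 for FGFR1, 20 for FGF9, 15 for FGF8, 4 for FGF10 and 0 for FGF2, FGF12, FGF20 and FGFR4. Among 15515 protein-coding genes with a promoter fragment, 37 had more than FGFR2, 67 more than FGFR1, 402 more than FGF9, 695 more than FGF8 and 3100 more than FGF10. The count for FGFR1 adds 3 promoter fragments that share PIRs. It stood for 20 distinct PIRs, and the main fragment alone had 13. The count for FGF8 adds 2 fragments, with 11 and 4, which share 3 of these PIRs. The 4 belong to the fragment that also holds a start of NPM3. At least 1 contact in all 3 replicates was found for 55.9% of the 15515 genes and at least 10 for 9.33%. Of the 9 member genes with a promoter fragment, FGFR2, FGFR1, FGF9, FGF8 and FGF10 had at least 1. All of these except FGF10 had at least 10. By fragment, 8 of the 12 had at least 1, beside 51.9% of all promoter fragments, and 6 had at least 10, beside 8.29%. The 3 FGFR1 fragments, which share PIRs, are in both of these counts, and both FGF8 fragments are in the first.

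The median distance of the same-chromosome contacts was 428 kb, and 416.6 kb for those called in all 3 replicates. Over the whole data set these medians were 716 and 395 kb. Between 250 and 500 kb, 45 of 85 member contacts were called in all 3 (52.9%, 42.4 to 63.2), beside 34.5% of all contacts over that distance. Of these 45, 22 were those of FGFR2 and 23 those of the FGFR1 fragments, which share PIRs. Between 500 and 1000 kb it was 38 of 69 (55.1%, 43.4 to 66.2), beside 26.9%, and FGFR2 gave 26 of these 38. Without FGFR2 it was 12 of 33 (36.4%, 22.2 to 53.4), whose interval includes the 26.9%. Between 1000 and 2000 kb it was 17 of 27 (63.0%, 44.2 to 78.5), beside 18.7%, and all 17 belonged to FGF9. Between 100 and 250 kb the share was 27 of 55 (49.1%, 36.4 to 61.9), whose interval includes the 39.8% of all contacts. None of the 10 contacts over 2000 kb or more was called in all 3, beside 7.67% of all contacts, and none of the 4 between chromosomes, beside 8.95%. A single contact was closer than 100 kb, where 42.6% of all contacts were called in all 3, and it was called in 2.

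**Figure D2:**
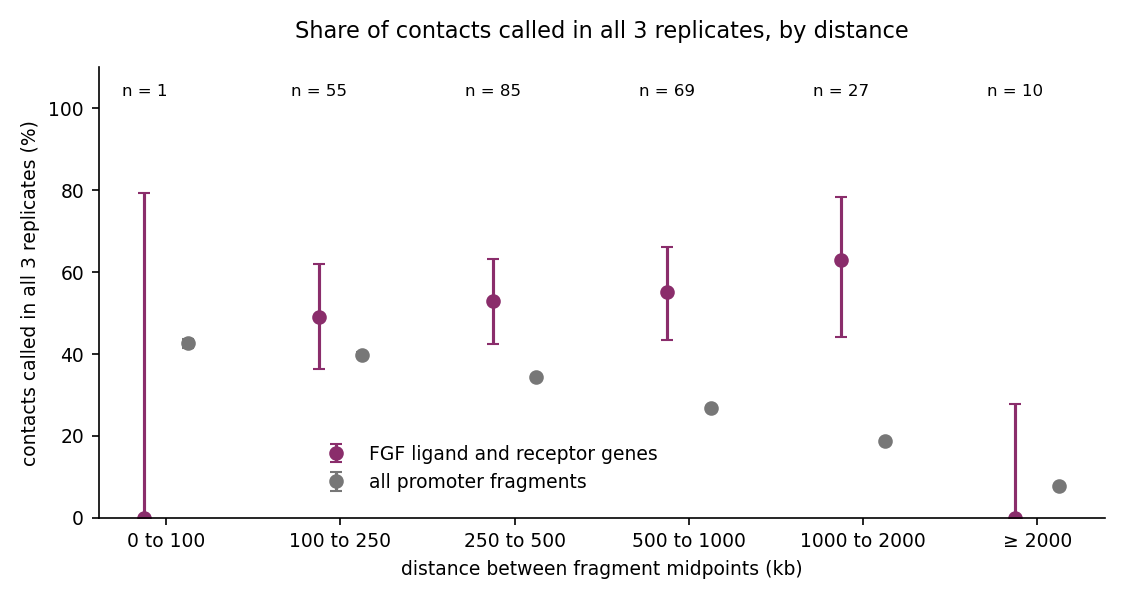
Share of contacts called in all 3 replicates (y axis, %) by the distance between the fragments (x axis, kb), for the FGF ligand and receptor genes (purple) and for all promoter fragments (grey), with 95% Wilson intervals and the number of member contacts above. From 250 to 2000 kb the member shares of 52.9 to 63.0% had intervals above the grey points, which fell from 34.5 to 18.7%. Few genes gave these contacts. From 250 to 500 kb, 22 of the 45 in all 3 were those of FGFR2 and 23 those of the FGFR1 fragments, which share PIRs. From 500 to 1000 kb, 26 of the 38 in all 3 were those of FGFR2, and the share without it was 36.4%. From 1000 to 2000 kb all 17 were those of FGF9.

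Counted together, most PIRs of the member genes lay outside protein-coding genes. This was so for 191 of the 251 contacts (76.1%), beside 40.5% over all contacts, and for 80 of the 84 FGFR2 contacts and 111 of the 167 others (66.5%, 59.0 to 73.2), while 58 touched another protein-coding gene and 2 the member gene itself (0.797%, beside 5.06% for promoter fragments of all protein-coding genes). The share outside protein-coding genes differed by gene. It was 30 of 31 contacts for FGF9, 10 of 16 for FGF10 and 17 of 29, 23 and 22 for the FGFR1 fragments. It was 11 of 24 for the main FGF8 fragment, 3 of 10 for the NPM3-side one and 0 of 4 for FGF12. No protein-coding gene start lay between promoter and PIR in 84 of the 127 same-chromosome contacts called in all 3 replicates (66.1%), beside 26.8% over all such contacts. These 84 were all 48 of FGFR2, all 20 of FGF9, all 4 of FGF10 and 12 of the main FGFR1 fragment, and FGF8 had none. The other 2 FGFR1 fragments also had none. The main start of FGFR1 itself lies between them and their PIRs upstream of the gene. Without FGFR2 it was 36 of 79 (45.6%). The second fragment was itself a promoter fragment in 18 contacts (7.17%, beside 9.59% of all contacts). No 2 member fragments contacted each other. The study's list of 91 VISTA enhancers, heart enhancers of mouse embryos, holds elements chosen because a PIR of these data overlaps them, and none lay in a PIR of the 10 genes, beside 0.096% over all contacts. The partner was listed for no other promoter fragment in 76 of the 251 contacts (30.3%, beside 34.5%), 49 of them FGFR2 contacts.

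Among the receptors, FGFR2 (chr10:123237846-123357972, minus strand) showed the densest set. Its promoter fragment at chr10:123354490-123358400 holds 19 of its 41 annotated starts, and the other 12 fragments with an FGFR2 start were not listed as promoter fragments. It had 84 contacts in the 3 replicates, of which 48 were called in all 3, 15 in 2 and 21 in 1. The gene-poor interval past the 3′ end of FGFR2, toward WDR11, held 46 of the 48. One-sidedness of this degree is common here, since at least 90% of the contacts lay on 1 side for 79.9% of the 1570 promoter fragments with at least 10 same-chromosome contacts called in all 3. The remaining 2 lay in introns of ATE1, the arginyltransferase gene on the other side. The PIR at chr10:123644276-123646046 scored 5.25, 7.5 and 6.02 and the one at chr10:123655692-123656915 scored 6.18, 5.56 and 5.93. These were close to the lowest score listed.

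Grouping PIRs less than 20 kb apart gave 3 blocks of FGFR2 contacts. The farthest, chr10:122666096-122759519, lay 598 to 690 kb from the promoter fragment and held 22 contacts, 16 of them in all 3 replicates. All 16 touched ENSG00000227307, a long non-coding RNA gene listed only by its identifier. The block held the highest scores of any member. The PIR chr10:122705718-122708722 scored 30.46, 29.33 and 34.37 (mean 31.4 ± 2.64), and the 164-base fragment beside it, printed above, scored 34.15, 31.6 and 25.76 (mean 30.5 ± 4.30). The 292-base fragment scored 29.74, 28.56 and 28.06 (mean 28.8 ± 0.863). These ranges overlap between replicates, and the 164-base fragment had the top score in replicates 1 and 2 and its neighbour in replicate 3. In the merged set the neighbour stood apart with 56.41, against 34.37 for the 164-base and 33.57 for the 292-base fragment.

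The middle block, chr10:122791737-122969072, was the widest at 177 kb and held 44 contacts, 24 of them in all 3. Its highest PIR, chr10:122837741-122839364, scored 16.66, 18.11 and 16.16 (mean 17.0 ± 1.01). The 184-base fragment that follows it had a mean of 15.3 ± 1.91. The block reaches over LINC01153, which 5 of the contacts called in all 3 touched, among them the 168-base fragment with 9.17, 6.08 and 8.42. The nearest block, chr10:123003910-123077633, held 14 contacts, 6 of them in all 3, with a highest mean score of 8.38. The highest mean score of a block was thus larger the farther the block lay. The farthest contact called in all 3 lay 667 kb away (7.39, 6.26 and 10.95). The 2 contacts outside the blocks on this side, at 241 kb and at 8002 kb over NRAP, a gene of striated muscle, were each called in 1 replicate, with 5.07 and 5.78.

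**Figure D3:**
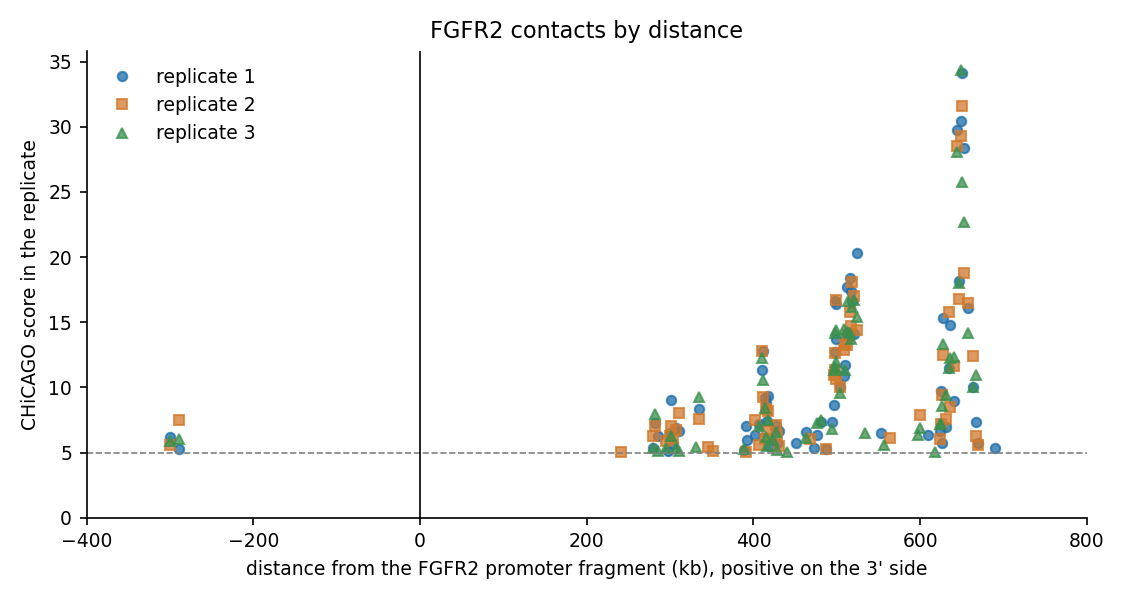
CHiCAGO score (y axis) of each FGFR2 contact in replicates 1 to 3 (coloured symbols) against its distance from the promoter fragment (x axis, kb, positive on the 3′ side, with the promoter at the black line). Contacts fell into groups at 280 to 352 kb, 389 to 564 kb and 598 to 690 kb, with 2 more in ATE1 on the other side, the dashed line marks the lowest score listed, and 1 call at 8002 kb is not drawn.

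FGFR2 shared few PIRs with coding genes. Of its 84 partners, 49 were listed for no other promoter fragment (58.3%, beside 34.5% over all contacts). The fragment with the most shared PIRs was chr10:123492963-123500601, at the start of the long non-coding RNA gene ENSG00000224250, 140 kb from the FGFR2 promoter. It shared 32 PIRs, which were 38.1% of those of FGFR2 and 86.5% of its own (Jaccard index 0.360), and 13 of these were called in all 3 replicates for both. ATE1 shared 3 and NSMCE4A 2. The merged replicates listed 107 FGFR2 contacts, 24 of them in no single replicate, and all 48 contacts called in all 3 scored higher there than in any replicate. The merged set was called on the pooled replicates, so its scores are not on the scale of a single replicate.

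FGFR1 (chr8:38257733-38326352, minus strand), the main receptor of cardiomyocytes in the textbook account, reached both sides of the gene. All 3 of its promoter fragments contacted an interval upstream of the gene, between FGFR1 and TACC1, a centrosomal coiled-coil gene. At chr8:38528351-38578193 the main fragment (chr8:38317989-38328283) had 13 contacts, 11 of them in all 3 replicates, and the LETM2-side fragment (chr8:38252730-38261326) had 15 and 8. The intragenic fragment (chr8:38277941-38281780) had 16 and 12 over nearly the same interval, from chr8:38525931. The PIR with the highest mean score was chr8:38566592-38568420 for each of the 3. It scored 18.57, 18.73 and 17.96 from the main fragment, 24.07, 23.9 and 20.61 from the intragenic one, and 19.19, 13.33 and 22.92 from the LETM2-side one. The intragenic fragment exceeded the main one in each replicate, while the range of the LETM2-side fragment overlapped both.

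On the other side lies the fragment chr8:38033716-38034660, which carries the shared promoter of BAG4, an HSP70 cochaperone gene, and LSM1, an RNA decay gene. It was called with all 3 FGFR1 fragments in all 3 replicates. Each time the pair was listed with the BAG4 and LSM1 fragment on the captured side. With the main fragment the scores were 12.36, 13.57 and 10.56 at 289 kb. With the intragenic one they were 6.42, 13.6 and 7.86 at 246 kb, and with the LETM2-side one 13.36, 19.07 and 16.35 at 223 kb. Replicate 2 was the highest with each of the fragments. It was the only contact between promoter fragments that FGFR1 made in all 3 replicates. The LETM2-side fragment also had 4 further PIRs in BAG4 in all 3, while the other 2 fragments had none there. On this side the contacts in all 3 thus numbered 5 for the LETM2-side fragment and 1 for each of the others. Whether the contacts of the LETM2-side fragment belong to FGFR1 or LETM2 cannot be told apart, since it holds starts of both.

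The 3 FGFR1 fragments had 37 distinct PIRs, of which 15 were shared by all 3, 7 by 2 and 15 belonged to 1. Of the 15 shared by all, 8 were called in all 3 replicates from each fragment. The fragments lie within 66.1 kb of each other in 1 gene, so that these are not independent counts. By Jaccard index the intragenic fragment was closest to the LETM2-side one (0.576, 19 shared PIRs) and next to the main one (0.552, 16 shared). Over FGFR1 itself a single PIR was called, chr8:38264712-38266318, 8.49 kb from the LETM2-side fragment, with 6.37 and 6.64 in replicates 1 and 3. The largest set outside the gene's own fragments was shared with NSD3, a histone methyltransferase gene, whose fragment had 15 PIRs in common with the LETM2-side one. With protein-coding FGFR1 transcripts alone, only the main fragment would count, and FGFR1 would have 22 contacts instead of 74.

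**Figure D4:**
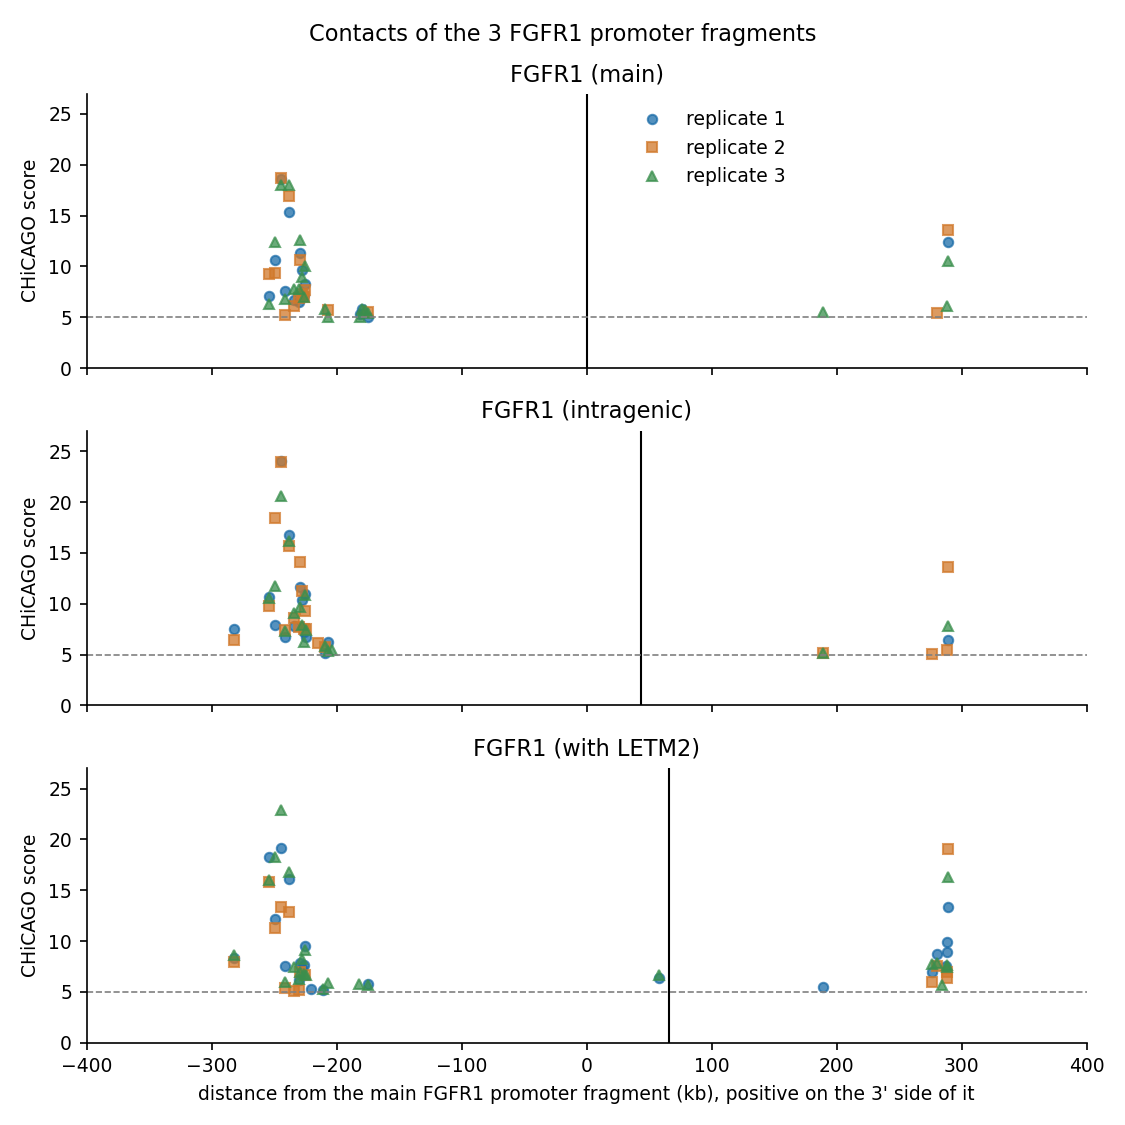
CHiCAGO score (y axis) of each contact of the main, the intragenic and the LETM2-side FGFR1 promoter fragment (panels, each fragment at its black line) in replicates 1 to 3, against the distance from the main fragment (x axis, kb, negative upstream of the gene). All 3 fragments had their highest mean scores at the same PIR 244 kb upstream and met the BAG4 and LSM1 promoter 289 kb away on the other side, and 1, 2 and 2 calls in the order of the panels lie outside the drawn range.

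FGFR4 and FGFR3 had next to none. FGFR4 had 1 contact, with chr5:176095594-176097556 between TSPAN17 and UNC5A, 416 kb away, which scored 6.14 in replicate 1 and 8.25 in replicate 3 and was not listed in replicate 2. Its promoter fragment is 20491 bases long and holds 15 of its 16 starts. All 10 starts of FGFR3, the receptor known for its part in bone growth, fell in 1 HindIII fragment of 22565 bases, chr4:1787811-1810375. This fragment was listed neither as promoter fragment nor as PIR in any of the 4 sets, and whether it was captured cannot be told from calls alone.

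Among the secreted ligands of the 10 genes, FGF9 (chr13:22245212-22278637, plus strand) had the farthest repeated contacts. Its promoter fragment, chr13:22242882-22246673, had 31 contacts, 20 of them in all 3 replicates. ENSG00000289860, a gene listed only by its identifier, also starts on this fragment, and the contacts of the 2 genes cannot be told apart. The interval chr13:23308694-23376585, 1065 to 1132 kb from the promoter fragment on the 3′ side of the gene and outside protein-coding genes, held 25 contacts and 17 of those in all 3. The PIR chr13:23335368-23339817 had the highest mean, with 13.16, 15.87 and 14.69 (14.6 ± 1.36). It was the top PIR in replicate 2, chr13:23367108-23367481 in replicate 1 (14.34) and chr13:23323892-23328037 in replicate 3 (15.29), so the order within the interval was not stable. The 278-base PIR printed above scored 12.93, 8.22 and 10.84. A second group of 5 contacts lay at 605 to 614 kb, and 3 of these were called in all 3 replicates, with 9.7, 6.99 and 9.0 at the highest. The first of them touched LINC00540. The contact with the promoter fragment of ZDHHC20, a palmitoyltransferase gene, on the other side was called in replicate 3 alone (7.81).

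The FGF9 contacts were not those of FGF9 alone. The promoter fragment of MICU2, a regulator of the mitochondrial calcium uniporter, 66.4 kb away at chr13:22177639-22179049, shared 25 of the 31 PIRs. As it had 31 as well, this was 80.6% of each set (Jaccard index 0.676), and 16 were called in all 3 replicates from both. SAP18, 533 kb away, shared 14. Of the 31 FGF9 PIRs, 6 were listed for no other promoter fragment (19.4%), and the PIR with the most promoter fragments had 13.

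FGF8 (chr10:103529866-103540128, minus strand) made its contacts past its 3′ end, in 2 intervals. The nearer, chr10:103343578-103416735, lies 119 to 190 kb from the main fragment (chr10:103533315-103536658), inside DPCD, POLL and FBXW4, genes of ciliary function, DNA repair and ubiquitin ligation. It held 12 contacts, 6 of them in all 3. The exonic FBXW4 fragment chr10:103369533-103370434 scored 11.78, 12.74 and 10.25 (mean 11.6 ± 1.26). The farther interval, chr10:102909191-102963561 between the homeobox genes TLX1 and LBX1, held 9 contacts, 5 of them in all 3. It contained the highest FGF8 score, with the promoter fragment of LINC01514 at chr10:102940896-102942080, at 593 kb. This contact scored 14.29, 15.47 and 13.4 (mean 14.4 ± 1.04) and ranked first in each replicate. It was listed only with the LINC01514 fragment on the captured side. Among contacts listed with FGF8 on that side, the FBXW4 fragment in the nearer interval had the highest mean. The farthest FGF8 contact called in all 3 lay 613 kb away, at chr10:102920577-102923659, with 5.19, 6.23 and 6.76. In replicate 3 the main fragment had 11 contacts against 20 and 18, but the 11 called in all 3 include every one of these.

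The NPM3-side FGF8 fragment (chr10:103536659-103543465) had 10 contacts, and all 10 of its PIRs were also PIRs of the main fragment. Of these, 4 were called in all 3 replicates, and all 4 lay in the nearer interval. The highest, chr10:103354218-103358061 in DPCD, scored 8.26, 8.95 and 8.2, beside 9.76, 9.62 and 6.53 from the main fragment. The fragment with the shared promoter of DPCD and POLL, chr10:103346850-103354217, scored 6.68, 5.72 and 6.56 from the NPM3 side, while the main fragment met it in replicate 1 alone (5.29). Whether these contacts belong to FGF8 or NPM3 cannot be told apart, since the fragment holds both. Outside the gene, the DPCD fragment chr10:103325227-103336483 shared the most PIRs with the main fragment, 11 in all (Jaccard index 0.262), which were 45.8% of those of FGF8 and 37.9% of its own. A contact with SKAP1 on chromosome 17 was called in replicate 1 alone (6.6).

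FGF10 (chr5:44300349-44389808, minus strand) had 16 contacts, 4 of them in all 3 replicates. These lay 658 to 697 kb from the promoter fragment, on the 3′ side of the gene, at chr5:43691010-43732626, in NNT, the mitochondrial transhydrogenase gene, and between NNT and FGF10. The PIR chr5:43724835-43727158 ranked first in each replicate, with 9.59, 11.16 and 9.41 (mean 10.1 ± 0.963). The next 2 fragments scored 7.83, 7.16 and 9.16 and 7.31, 8.5 and 9.11. The farthest called in all 3 was in NNT at 697 kb, with 5.37, 6.82 and 6.4. The promoter fragment of C5orf34, 875 kb away, was called in replicates 1 and 2 (7.67 and 5.23). The 3 contacts with chromosome 19 were each called in 1 replicate. FGF10 shared 11 PIRs with the promoter fragment of MRPS30, a mitochondrial ribosomal protein gene 422 kb away (68.8% of its own and 27.5% of those of MRPS30), of which 1 was called in all 3 replicates from both. The FGF10 promoter fragment also holds a start of the antisense gene FGF10-AS1.

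**Figure D5:**
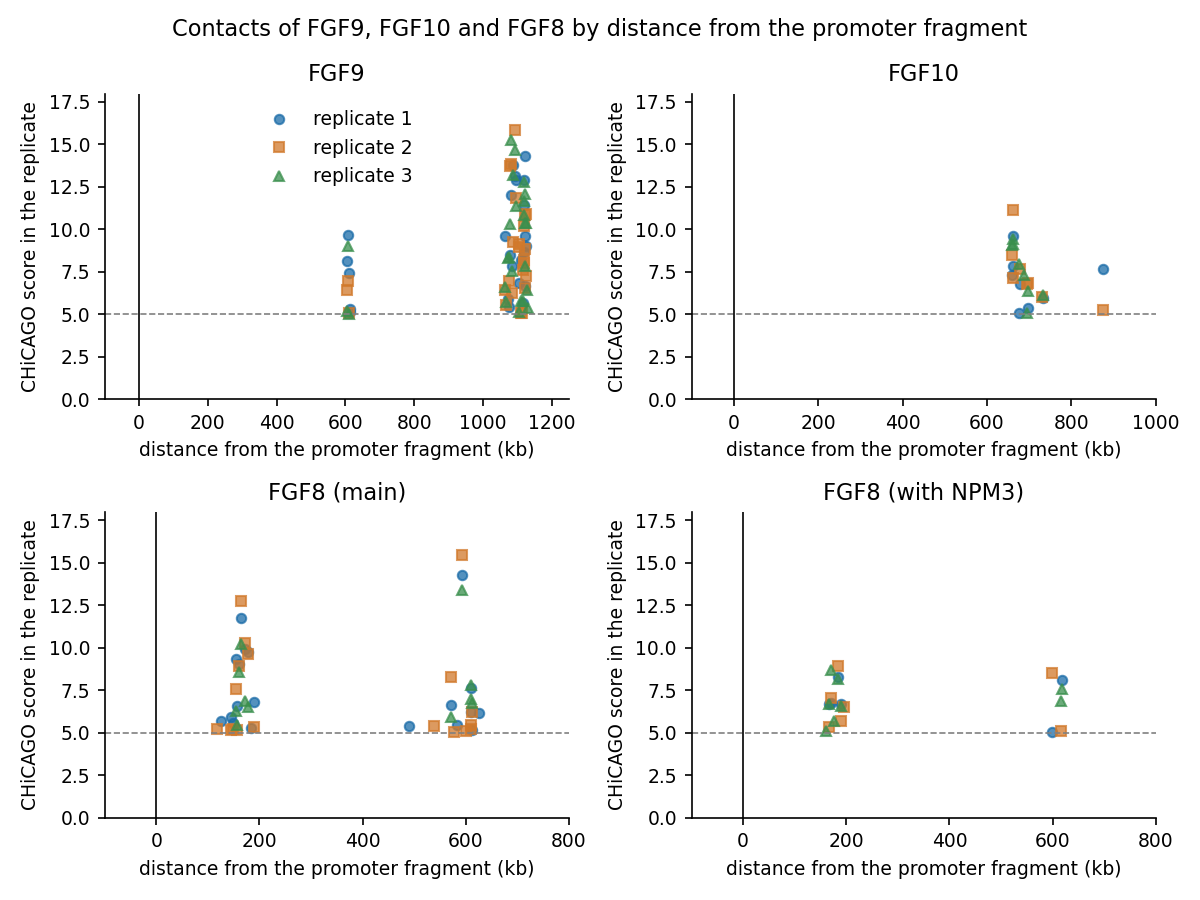
CHiCAGO score (y axis) of each contact of FGF9, FGF10 and the 2 FGF8 promoter fragments (panels) in replicates 1 to 3 against the distance from the promoter fragment (x axis, kb, positive on the 3′ side). FGF9 contacts stood at 605 to 614 kb and at 1065 to 1132 kb, FGF10 contacts mostly at 658 to 697 kb and those of both FGF8 fragments mostly at 119 to 195 kb and 572 to 626 kb, with 1 call of FGF9 and 2 of FGF10 outside the drawn range.

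The remaining ligands had no contact in all 3 replicates. FGF2 had 5 contacts, each in 1 replicate, at scores of 5.33 to 10.12 and distances of 1425 kb to 61458 kb, and none was listed in the merged set. FGF20 had 2 contacts, both in replicate 3, with the promoter fragment of ZDHHC2 at 154 kb (5.01) and with a fragment 218 kb away (5.28). Both were also in the merged set. FGF12 had 4. The promoter fragment of PYDC2 at 1307 kb scored 5.8 and 6.77 in replicates 1 and 2, and the fragment of the antisense gene FGF12-AS2 inside FGF12, 254 kb away, scored 5.04 and 5.46 in replicates 1 and 3. The promoter fragment of FGF12 held 1 of its 14 annotated starts, while 11 fell in chr3:192439813-192446797, which was not listed in any set. The merged set held 10 FGF12 contacts, 8 of them in no replicate. With 0 contacts in all 3 of 5, 4, 2 and 1 contacts for FGF2, FGF12, FGF20 and FGFR4, the upper Wilson limits were 43.4%, 49.0%, 65.8% and 79.3%. The limit for FGF2 lay below the intervals of FGFR2 (57.1%, 46.5 to 67.2) and FGF9 (64.5%, 46.9 to 78.9). Those for FGF12, FGF20 and FGFR4 overlapped both. These intervals take contacts as independent, which neighbouring PIRs of 1 promoter are not, so they do not set the genes apart. The FGF2 contacts also all lay at 1425 kb or more. Of all contacts over 1000 to 2000 kb 18.7% were called in all 3, and of those over 2000 kb or more 7.67%.

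The CTCF core motif was found in 1 of the highest-scoring PIRs, that of FGF10, where 9.31% of the listed fragments of 2000 to 4000 bases hold a match. It was found in the promoter fragments of FGF2, FGF20, FGFR4, the main FGFR1 fragment and the NPM3-side FGF8 fragment, beside 9.31% to 38.8% of fragments in the length classes of these. It was in neither the FGFR2 promoter fragment nor its highest PIR. The GATA motif was in the highest PIRs of FGF9 (9 matches), FGFR2 (3), FGF10 (2) and both FGF8 fragments (1 and 2), at lengths where 68.8 to 95.2% of fragments hold one, and not in that of FGFR1. A match states only that these letters are in the fragment.

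Other genes of the pathway were counted by the same rule. Of 39 listed genes, 33 had a promoter fragment. Of these 33, 22 had a contact in all 3 replicates and 5 had at least 10. Of the 15515 protein-coding genes with a promoter fragment, 55.9% and 9.33% did. Among the 16 other ligands and homologous factors, 12 had a promoter fragment. Of these 12, 6 had a contact in all 3 and FGF18, a ligand known from bone and lung, was the 1 with at least 10. It had 34 contacts in each replicate and 31 of 39 in all 3, with a highest mean score of 27.6. Of the 6 coreceptors and decoys, 4 had a promoter fragment and 2 of these had a contact in all 3. They were FLRT2 and FLRT3, transmembrane proteins that bind FGF receptors, with 16 and 17 contacts in all 3, at medians of 2456 and 2148 kb. Of 7 signal transducers 6 had a contact in all 3 but none had 10. Of 10 feedback inhibitors and targets 8 had a contact in all 3 and 2 had at least 10. These were SPRY2, an inhibitor of receptor signalling, with 21, and ETV1, a transcription factor induced by FGF, with 26. DUSP6, the MAP kinase phosphatase, had 6. FGF16 had 2 contacts in all 3 replicates, both on another chromosome, with a mean score of 351 at the highest.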

How the data were processed

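PCHi-C was performed on 3 biological replicates of hESC-CMs. The authors mapped reads to GRCh37 with HiCUP, called interactions with CHiCAGO, and deposited the called fragment pairs, each with its score, for every replicate and for the merged replicates. The replicates held 112473, 109731 and 110740 calls and the merged set 152757. Read counts and depth were not analysed here, and a pair that scored under 5 cannot be told from an absent one.

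Transcript starts were those of the GENCODE v44 annotation, in its GRCh37 version. Lines that gave the same 2 fragments in either order were 1 contact. All 259 member and partner fragments ended at HindIII sites of the genome. Distances are between midpoints, a mean score is over the replicates that called the contact, SDs are between replicates, and shares carry 95% Wilson intervals. A block is at least 3 PIRs with gaps of at most 20 kb. The pathway lists, the 10 genes and the rule for the PIRs that are named (the highest mean score, the farthest contact, other promoter fragments and the most shared PIRs) were chosen with earlier results of these data known. PIRs and blocks beyond that rule were named after their values were seen. With 1 condition, no test between groups was run. The scripts were tested on simulated data. Alternatives were score limits of 7 and 10, each replicate left out, merged calls, ordered pairs, matching within 5 kb, distance limits and protein-coding starts. Scripts ran in Python 3.11.15 (pysam 0.24.0, scipy 1.17.1, numpy 2.4.6, matplotlib 3.10.9).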

Additional observations from a re-analysis of the deposited data

How the results depend on the processing

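The counts of contacts depended on the score limit. At a score of at least 7 the 251 contacts became 146, at a median distance of 498 kb, and at a score of at least 10 they became 64, at 513 kb and with 64.1% called in all 3 replicates. Leaving out 1 replicate gave 224 to 226 contacts, medians of 416 to 441 kb and a share called in both remaining replicates of 60.2 to 65.6%. PIRs of 1 promoter within 5 kb, joined, gave 80 contacts at 446 kb, 40% of them in all 3. Contacts over at most 1 Mb gave 52.4% and a median of 333 kb, protein-coding starts alone a median of 514 kb, and the merged calls a median of 348 kb. Without FGFR2, an alternative chosen after seeing the data, 167 contacts were left, with 47.3% in all 3 and a median of 296 kb. Of 72 counts for single genes under an alternative, 50 stayed within 1.5 times the reported count. FGF2 had 2 contacts in place of 5 without replicate 2, and FGF20 had 0 in place of 2 without replicate 3. No paired analysis was possible because the study has 1 condition. Depth was not analysed, and pairs with scores under 5 are not listed.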

Other observations

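The merged set listed every one of the 127 member contacts called in all 3 replicates, and 124 of them had a higher score there than in any single replicate. Of the 79 contacts called in 1 replicate, 56 were listed in the merged set. For FGF2 this was 0 of 5 and for FGF10 1 of 7, beside 20 of 21 for FGFR2 and 9 of 10 for the main FGF8 fragment.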
